A study of Zea mays with 12 samples.

Results

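Transcript levels in the ligular region of the maize line N18 were set against those in its developing internode, over every gene that reached an FPKM (fragments scaled to transcript length and library size) of 1 in at least 1 of these tissues. That rule kept 23226 of the 39514 genes listed. The ligular region is the ring of leaf where the blade meets the sheath, and it was taken from leaves 8 and 9. The internode is the stretch of stem between leaf attachments, taken while still developing, between leaves 7 and 8. Both came from plants at the V7 vegetative stage, with 3 samples of each tissue. N18 is the line against which the authors set the mutant Sdw3, so neither tissue carries the mutation or a treatment as far as the labels say. The study also sampled Sdw3, with 3 ligular regions and 3 internodes of the same leaves and stage. Those Sdw3 samples are used below to see which of the N18 differences recur in other libraries.

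The ligule is a small flap of epidermal origin, and beside it lie the auricles that let the blade lean away from the stem. Its position is set by the SBP-box transcription factor encoded by liguleless1, acting with liguleless2. Stems and shoot meristems express knotted1-like homeobox (KNOX) genes, which are shut off when a leaf is founded and stay off in normal blades. When they are expressed in a leaf, as in dominant Knotted and Liguleless mutants, the blade and sheath boundary is displaced. A young internode lengthens by cell division in an intercalary zone followed by cell expansion and wall thickening.

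The authors gave 1 combined FPKM per tissue and genotype, so values per sample, and the spread between the 3 samples of a group, are not shown and no test between the tissues could be made. Every difference below is a description. Differences are log2((ligular + 1)/(internode + 1)) after the N18 columns were quantile-normalized, which gives both the same distribution, so a positive value means higher in the ligular region. Adding 1 understates the change of genes with low values. Levels are FPKM as deposited, which is per transcript length. A gene is counted as higher or lower at 2-fold. The authors' test statistics between genotypes gave an approximate error for 20022 of the 23226 genes, with a median of 0.20 on the log2 scale, and it is printed after ± for most of the named genes that have one. It pools both genotypes' libraries and holds nothing on the scaling between the tables. It belongs to log2 ratios of deposited FPKM, without the added 1 or the normalization. It is therefore only a rough guide to the printed differences, above all for genes with low values. The tissues were in separate tables and their leaf numbers differ, so tissue, table and leaf position cannot be told apart. In whole tissue, fewer cells of a type and less RNA per cell cannot be told apart either.

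Of the 23226 genes, 4671 were at least 2-fold higher in the ligular region (20.1%) and 4761 were at least 2-fold lower (20.5%), together 40.6%. The other 13794 genes (59.4%) lay within 2-fold. When the columns were instead scaled to a median log2 ratio of 0, 5871 genes were higher and 3326 lower, so the higher genes made up 63.8% of those past 2-fold, against 49.5% with quantile normalization. The median over all genes was -0.18 after quantile normalization, -0.09 as deposited and 0.07 with the median-ratio scaling. Large differences were more often in favour of the ligular region, with 2266 genes at least 4-fold higher and 1345 at least 4-fold lower. At 16-fold there were 499 higher and 167 lower genes. An FPKM of 1 was reached in both tissues by 19282 genes, in the ligular region alone by 2594 and in the internode alone by 1350. Across the 23226 genes the rank correlation between the tissues' levels was 0.662 (Spearman), a description over genes that share their libraries.

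The deposited FPKM values summed to 817741 in the ligular region and 734039 in the internode. The 10 most abundant genes held 6.59% of the sum in the ligular region and 3.70% in the internode. Among the 100 most abundant genes of each tissue, 24 were shared. The highest gene was grp1, a glycine-rich protein by its name, in both tissues, at 11615 FPKM in the ligular region and 5922 FPKM in the internode. Because quantile normalization gives the top rank the same value in both columns, its normalized difference was 0.00. In other very abundant genes the same step shifts the difference toward the internode, which shrinks positive differences and enlarges negative ones. The α-tubulin gene tua4 had 1037 FPKM in the ligular region and 1921 FPKM in the internode, a log2 difference of -1.65 after normalization and -0.89 as deposited.

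**Figure D1:**
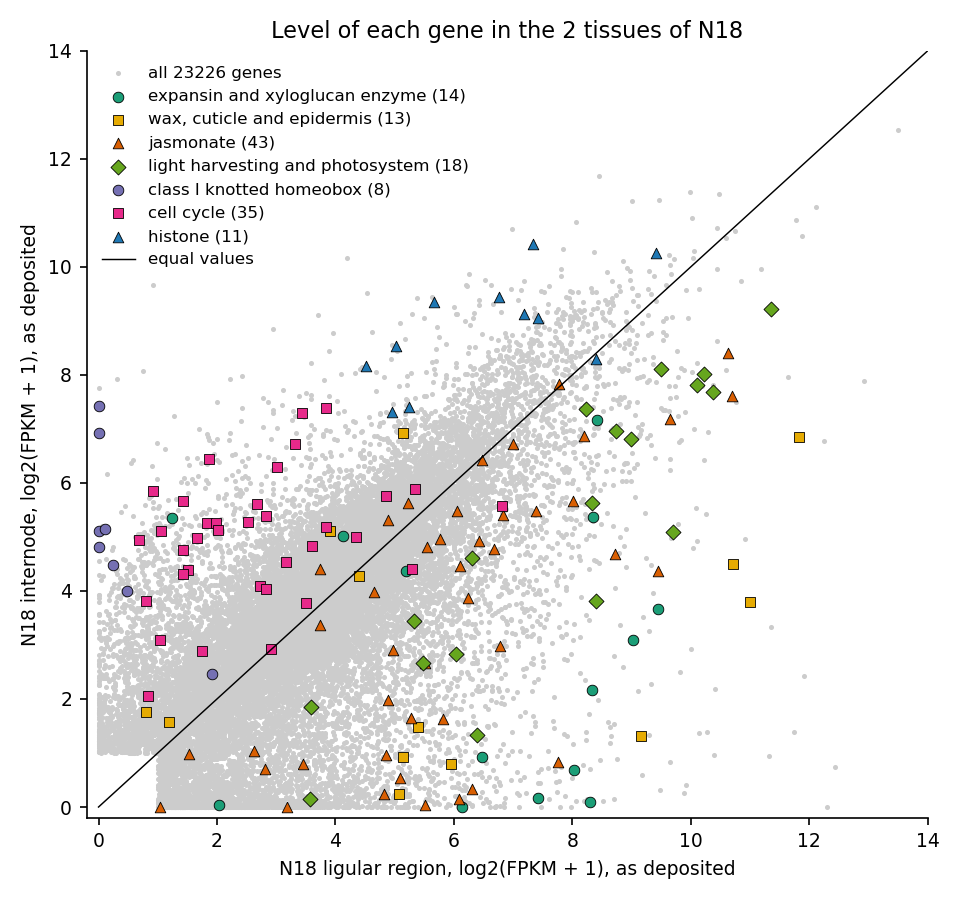
Each point is a gene, with its N18 ligular region level on the x axis and its N18 internode level on the y axis, both as log2(FPKM + 1) as deposited, and 7 gene lists in colour. All class I KNOX genes but knox8 lie at the y axis, cell-cycle and histone genes lie mostly above the line of equal values, and expansin, wax, jasmonate and photosystem genes lie mostly below it.

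The labels were first read against defining markers. liguleless1 (lg1, GRMZM2G036297, chromosome 2, 4265162 to 4268840 on B73 RefGen_v3), the SBP-box gene without which no ligule or auricle forms, had 14.9 FPKM in the ligular region and 0.125 FPKM in the internode. Its log2 difference was 3.70, and in Sdw3 it was 3.61. liguleless2 (lg2, GRMZM2G060216), a bZIP gene of the same pathway, had 0.925 FPKM in the ligular region and 0.235 FPKM in the internode and so fell below the minimum of 1. The marker of the ligule's position was therefore present in the ligular samples and near 0 in the stem, while lg2 was low in both tissues. KN-1 (knotted1, GRMZM2G017087, chromosome 1, 271407489 to 271415210), the marker of meristem and young stem, was listed at 0 in the ligular region and at 172 FPKM in the internode.

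The class I KNOX genes were the list with the lowest median, -4.94 over its 8 genes against -0.18 over all genes. None of the 8 was higher and 7 were lower in the ligular region. knox3 (GRMZM2G000743) was listed at 0 in the ligular region and had 33.7 FPKM in the internode, and gnarley1 (GRMZM2G452178) was listed at 0 in the ligular region and had 27.01 FPKM in the internode. Like KN-1, both were thus without any listed ligular signal in N18. The genes whose dominant alleles gave the Liguleless mutants of this class were also almost silent at the ligule. lg3 (GRMZM2G087741) had 0.0727 FPKM in the ligular region and 34.2 FPKM in the internode. lg4 (GRMZM2G094241) had 0.182 FPKM in the ligular region and 21.2 FPKM in the internode, and HB39, listed also as lg4b, had 0.388 FPKM in the ligular region and 14.9 FPKM in the internode. knox8 was the exception within 2-fold, with 2.78 FPKM in the ligular region and 4.54 FPKM in the internode (log2 difference -0.80 ± 0.37). In Sdw3 all 8 were lower, with a median of -4.78, and knox8 had -1.99 there. The 2 class II genes, knox6 and knox7, which are expressed in differentiating organs, differed by -0.08 ± 0.18 and 0.11 ± 0.22.

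Genes that pattern the leaf's faces and margins were mixed: of the 10 on the list that reached the minimum, 6 were higher and 3 lower in the ligular region, with a median of 1.2. The list's lg1 is counted among the SBP-box genes as well. kan1, a KANADI gene of the abaxial (lower) leaf side, had 13.8 FPKM in the ligular region and 0.530 FPKM in the internode (log2 difference 3.08). mwp1 (milkweed pod1, also KANADI) had 7.90 FPKM in the ligular region and 1.73 FPKM in the internode (1.48 ± 0.25), and kan3 had 2.95 FPKM in the ligular region and 0.241 FPKM in the internode (1.36). The 3 KANADI genes were therefore all higher at the ligule. AS2, an LOB-domain gene listed also as IG1 and LBD6, had 3.33 FPKM in the ligular region and 0.101 FPKM in the internode (1.73). ial1 was the list's 1 gene within 2-fold, with 1.24 FPKM in the ligular region and a listed 0 in the internode (0.99). rs2 (rough sheath2), the MYB repressor that keeps KNOX genes off in leaves, had 63.7 FPKM in the ligular region and 29.3 FPKM in the internode (1.04 ± 0.16). Its difference was just past 2-fold in N18 and just within it in Sdw3, where it was 0.92.

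The 3 lower genes act on the adaxial (upper) side. The list was not sorted by leaf side, so no direction is drawn for adaxial or abaxial genes as a whole. lbl1 (leafbladeless1, GRMZM2G020187), which is needed for the small RNAs that restrict abaxial genes, had 31.8 FPKM in the ligular region and 131 FPKM in the internode (-2.06 ± 0.16). rld2 (rolled leaf2), an HD-ZIP III gene, had 31.8 FPKM in the ligular region and 79.8 FPKM in the internode (-1.35 ± 0.15). HB133, listed also as rld1 and of the same class, had 29.5 FPKM in the ligular region and 74.8 FPKM in the internode (-1.36 ± 0.17), and it shares its locus with another gene in the tables, so its value is less certain. All 3 were above 29 FPKM in both tissues, unlike the KNOX genes. The 4 list genes below the minimum in both tissues were lg2, CUC2, a MEI2-like gene and ns1, and ns1 was listed at 0 in both.

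YABBY genes, which promote blade outgrowth and lateral organ identity, were higher in 5 of the 6 that reached the minimum, with a median of 2.04. YAB3 (GRMZM2G106204, chromosome 7, 6315292 to 6328611) had 42.1 FPKM in the ligular region and 0.437 FPKM in the internode (4.70). YAB11 had 31.5 FPKM in the ligular region and 1.70 FPKM in the internode (3.40 ± 0.37). yabby15 had 47.1 FPKM in the ligular region and 14.9 FPKM in the internode (1.58 ± 0.21), so it was also well above 1 in the stem. YAB5 (2.51 ± 0.28) and YAB6 (1.15 ± 0.34) were the other 2 higher genes. yab10 was lower, with 0.200 FPKM in the ligular region and 1.41 FPKM in the internode (-1.27), and it came within 2-fold when the columns were scaled to a median ratio of 0. The 2 left out by the minimum were yab9 and yab14.

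Among the SBP-box transcription factors, lg1 was the 1 higher gene of 18, and 7 were lower, with a list median of -0.85. The paralogs ub2 and ub3 (unbranched2 and unbranched3), which restrict lateral primordia in the shoot, had the largest differences among the lower genes. ub2 (GRMZM2G160917, chromosome 1, 188215375 to 188219483) had 1.82 FPKM in the ligular region and 62.8 FPKM in the internode (-4.72 ± 0.25). ub3 (GRMZM2G460544, chromosome 4, 199456663 to 199460958) had 6.58 FPKM in the ligular region and 74.9 FPKM in the internode (-3.43 ± 0.20). In Sdw3 the same genes had differences of -2.68 and -1.55, and their Sdw3 internode levels were 24.7 and 21.6 FPKM. sbp29 was lower in N18 (-1.34 ± 0.20) and within 2-fold in Sdw3 (-0.36). The other lower members were sbp5, sbp20, sbp23 and sbp27, with differences between -2.13 and -1.06. The most abundant SBP-box gene of the ligular region was sbp16, at 77.4 FPKM there and 51.1 FPKM in the internode (0.51 ± 0.15).

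Growth-regulating factors (GRF) and their coactivators promote cell proliferation in young organs. Of 17 genes, 10 were lower and 2 higher in the ligular region, with a median of -1.25. The coactivator AN3 (listed also as GIF1, GRMZM2G180246, chromosome 1, 273393235 to 273396891) had 1.43 FPKM in the ligular region and 151 FPKM in the internode (-6.18 ± 0.30), 1 of the 5 largest decreases among named genes. GIF2, which shares its locus with another gene, differed by -0.28 ± 0.26. The GRF genes with the largest negative differences were atGRF5 (GRMZM2G105335), with 1.53 FPKM in the ligular region and 28.3 FPKM in the internode (-3.71 ± 0.27), and GRF2, with 1.07 FPKM in the ligular region and 17.8 FPKM in the internode (-3.35 ± 0.31). GRF6 and GRF5 went the other way. GRF6 had 25.9 FPKM in the ligular region and 10.3 FPKM in the internode (1.22 ± 0.18), and GRF5 (GRMZM2G129147, with a shared locus) had 56.2 FPKM in the ligular region and 13.7 FPKM in the internode (1.93 ± 0.29). In Sdw3 the list's median was -0.56, and 13 of the 17 differences were smaller in size than in N18, as were 63.8% of all genes and 77.6% of those past 2-fold in N18.

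**Figure D2:**
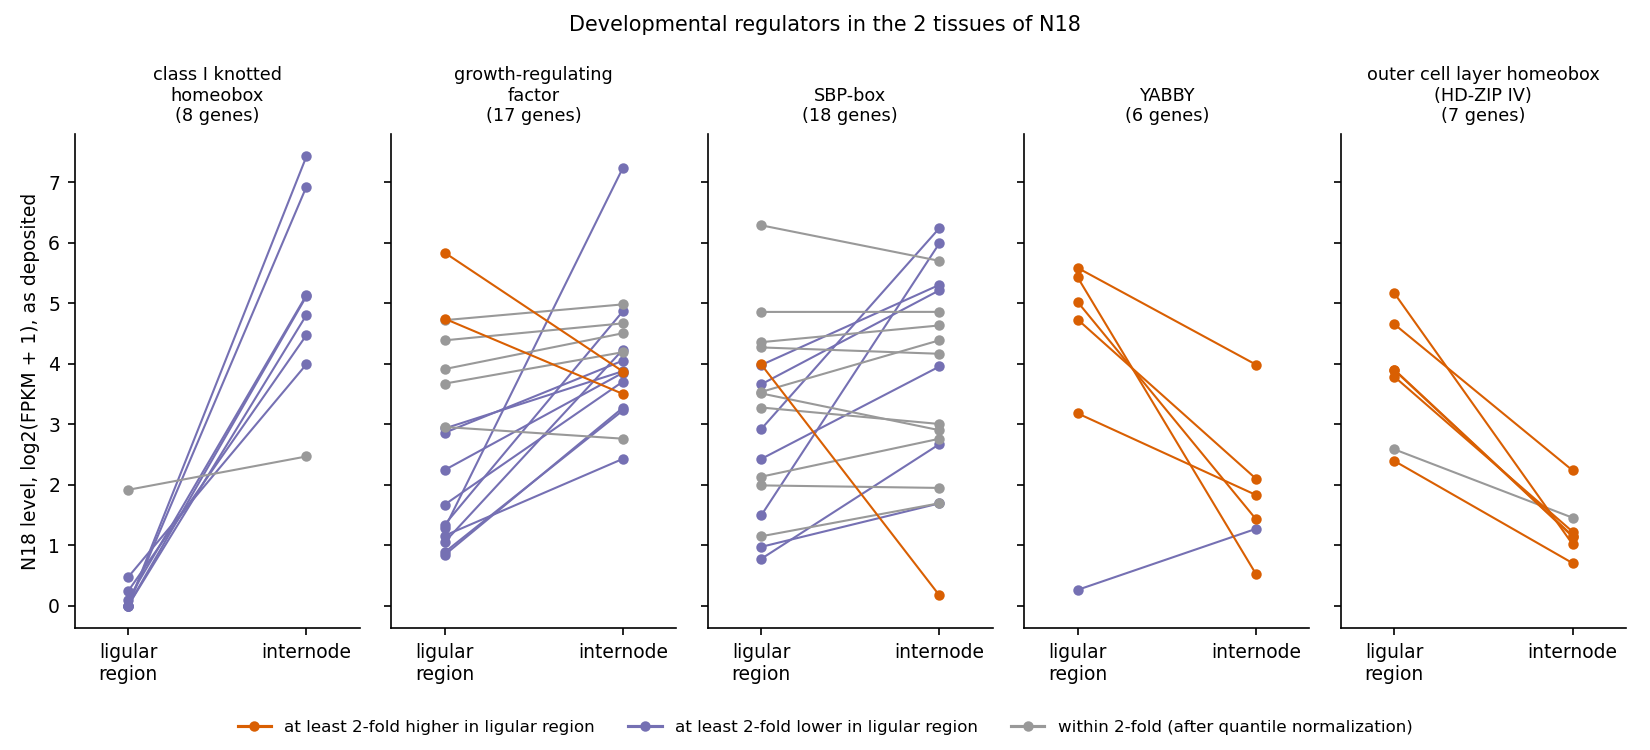
Lines join each gene's N18 level in the ligular region (left) to its level in the internode (right), as log2(FPKM + 1) as deposited, for 5 families of developmental regulators, coloured by whether the difference passed 2-fold. Class I KNOX lines are higher at the internode end, YABBY lines except yab10 and outer cell layer lines are higher at the ligular end, and lg1 is the 1 SBP-box line more than 2-fold higher in the ligular region.

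The other shoot regulators gave smaller groups. Of the WUSCHEL-related homeobox genes, 3 of 13 reached the minimum. wox4, a gene of the vascular cambium in Arabidopsis, was listed at 0 in the ligular region and at 6.01 FPKM in the internode, and wox5B had 0.0608 FPKM in the ligular region and 2.91 FPKM in the internode. Of 6 TCP genes, 3 were higher (TCP5, TCP30 and TCP7) and TCP12 was lower (-1.09 ± 0.17). MADS-box genes had 3 higher and 3 lower of 16, near the 20.1% and 20.5% over all genes. MADS76 had 142 FPKM in the ligular region and 4.91 FPKM in the internode (4.48 ± 0.24). MADS34 had 0.167 FPKM in the ligular region and 26.1 FPKM in the internode (-4.61), and 4.25 FPKM in the Sdw3 internode.

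Genes of cell division were far lower in the ligular region. Of 35 cell-cycle genes 28 were lower and 1 was higher, with a median of -3.04. The cyclin gene cyclin8 (GRMZM2G138886, chromosome 2, 18100583 to 18104322) had 0.885 FPKM in the ligular region and 57.0 FPKM in the internode (-5.15 ± 0.26). The spindle checkpoint gene mad2, which shares its locus, had 2.64 FPKM in the ligular region and 86.5 FPKM in the internode (-4.78 ± 0.31). The gap reached DNA replication too. PCNA, the sliding clamp, had 7.12 FPKM in the ligular region and 77.2 FPKM in the internode (-3.35 ± 0.19), and the helicase subunits MCM6 and MCM7 differed by -3.42 ± 0.18 and -3.48 ± 0.19. The small ribonucleotide reductase subunits RNRS1, RNRS2 and RNRS3 differed by -3.47, -3.05 and -3.58. The exception was cycD2, a D-type cyclin, with 112 FPKM in the ligular region and 46.8 FPKM in the internode (1.18 ± 0.15). The retinoblastoma-related genes were split. Rbl1 differed by -3.61 ± 0.18, whereas RBR1 and RBR2 stayed within 2-fold at -0.31 ± 0.16 and -0.12 ± 0.34.

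Histone genes followed, with 10 of 11 lower, none higher and a median of -2.40. his2a1, an H2A gene, had 161 FPKM in the ligular region and 1371 FPKM in the internode (-3.55 ± 0.16) and was among the 5 named genes with the highest internode level. his2b2, an H2B gene, had 49.7 FPKM in the ligular region and 648 FPKM in the internode (-3.86 ± 0.16). H4C13 (GRMZM2G149178) was the 1 within 2-fold, with 338 FPKM in the ligular region and 314 FPKM in the internode. Of 7 kinesins, motor proteins of the spindle and cytoskeleton, 4 were lower and none higher. KIN13 had 0.981 FPKM in the ligular region and 66.4 FPKM in the internode (-5.31 ± 0.21). Of 17 tubulin and actin genes 11 lay within 2-fold, with 5 lower and 1 higher. Over all genes 59.4% lay within 2-fold. TUB1, a β-tubulin, had 20.9 FPKM in the ligular region and 281 FPKM in the internode (-3.70 ± 0.17), and tub4 had 110 FPKM in the ligular region and 32.1 FPKM in the internode (1.70 ± 0.16).

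Ribosomal protein genes were lower by a smaller and more even amount, with a median of -1.13 over 33 genes, 23 lower and 1 higher. The differences ran between -2.24 (arpp2a-3) and 1.09 (rpl19, GRMZM2G171444). rps27 had 318 FPKM in the ligular region and 781 FPKM in the internode (-1.55 ± 0.15). Because many of them lie near the 2-fold line, their count depended on the scaling: 13 were lower when the columns were scaled to a median ratio of 0, and the median was then -0.88. In Sdw3 7 were lower and 2 higher, with a median of -0.78.

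Wall-loosening genes had the highest median of all lists, 5.49 over 14 genes against -0.18 over all genes, with 11 higher and 1 lower. Expansins let wall polymers slip as a cell grows. The α-expansin gene expA3 (GRMZM2G074585, chromosome 10, 99487993 to 99489313) had 314 FPKM in the ligular region and 0.0618 FPKM in the internode, a log2 difference of 8.13 whose approximate error was 2.09. expa1 had 694 FPKM in the ligular region and 11.6 FPKM in the internode (5.66 ± 0.18), and EXPA5 had 518 FPKM in the ligular region and 7.57 FPKM in the internode (5.86 ± 0.18). β-expansins did the same. expB4 had 260 FPKM in the ligular region and 0.602 FPKM in the internode (7.14), expB7 had 170 FPKM in the ligular region and 0.117 FPKM in the internode (7.12), and expB5 had 69.4 FPKM in the ligular region and was listed at 0 in the internode. The xyloglucan enzyme gene xth1 had 320 FPKM in the ligular region and 3.51 FPKM in the internode (6.03 ± 0.21). expB3 was the 1 gene of the list that was lower in the ligular region, with 1.36 FPKM in the ligular region and 40.0 FPKM in the internode (-4.31 ± 0.27).

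Cellulose synthase genes of the primary wall were higher in 6 and lower in 1 of 10 genes, with a median of 1.24. CesA-4 had 174 FPKM in the ligular region and 36.0 FPKM in the internode (2.21 ± 0.16), and CesA-7 had 291 FPKM in the ligular region and 77.3 FPKM in the internode (1.85 ± 0.18). CesA-3 had 14.1 FPKM in the ligular region and 60.1 FPKM in the internode (-2.07 ± 0.20), the 1 lower gene. Both secondary wall genes that reached the minimum were higher. CesA12 had 39.4 FPKM in the ligular region and 4.29 FPKM in the internode (2.83 ± 0.18), and bk2 (brittle stalk2), a COBRA-like gene needed for strong stalks, had 75.1 FPKM in the ligular region and 0.0592 FPKM in the internode (6.05). CSLD1, a cellulose synthase-like gene, was lower, with 3.65 FPKM in the ligular region and 121 FPKM in the internode (-4.89 ± 0.17).

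Lignin genes, which thicken and waterproof walls, were higher in 7 of 9 with none lower and a median of 1.89. PAL1, which opens the phenylpropanoid pathway, had 1168 FPKM in the ligular region and 220 FPKM in the internode (2.18 ± 0.18). CAOMT, the caffeic acid methyltransferase with a shared locus here, had 250 FPKM in the ligular region and 39.3 FPKM in the internode (2.62 ± 0.33). CCOAOMT2 had 43.5 FPKM in the ligular region and 5.28 FPKM in the internode (2.74 ± 0.19). The 2 within 2-fold were the reductases CCR (0.96 ± 0.16) and ccr2 (0.86). Laccases, which polymerize lignin, were higher in 7 of 8, with a median of 2.38. Lac1 had 23.6 FPKM in the ligular region and 3.63 FPKM in the internode (2.30 ± 0.22). In Sdw3 4 of the 8 laccases were higher and 1 lower, with a median of 1.27.

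Photosynthesis genes were higher as a block. All but 1 of 18 light-harvesting and photosystem genes were higher, none lower, with a median of 2.09, and their summed level was 9997 FPKM in the ligular region and 2100.0 FPKM in the internode. Cab-m7, a chlorophyll-binding protein, had 2607 FPKM in the ligular region and 597 FPKM in the internode (1.66 ± 0.18). cab-m1 had 833 FPKM in the ligular region and 33.1 FPKM in the internode (4.47 ± 0.18), and fdx2, a ferredoxin, had 82.6 FPKM in the ligular region and 1.52 FPKM in the internode (4.84 ± 0.43). lhcb5 was within 2-fold at 0.81 ± 0.16. The internode was therefore not free of these transcripts, and 17 of the 18 genes reached an FPKM of 1 there. Of 7 Rubisco, Calvin cycle and photorespiration genes, 5 were higher and none lower. RA, Rubisco activase by its name, had 232 FPKM in the ligular region and 5.64 FPKM in the internode (5.05 ± 0.19), while Pgk-2 had 319 FPKM in the ligular region and 562 FPKM in the internode (-0.92 ± 0.16).

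The C4 carbon pump runs between mesophyll and bundle sheath cells, and 5 of its 7 genes were higher and 1 lower, with a median of 3.11. C4ppdkZm1 (GRMZM2G306345), which regenerates phosphoenolpyruvate in mesophyll, had 240 FPKM in the ligular region and 5.62 FPKM in the internode (5.10 ± 0.26). pep1, the mesophyll phosphoenolpyruvate carboxylase, had 35.1 FPKM in the ligular region and 0.209 FPKM in the internode (4.75). ME1, the bundle sheath malic enzyme, had 16.7 FPKM in the ligular region and 0.787 FPKM in the internode (3.11). These markers of both leaf cell types were thus higher at the ligule. Among other bundle sheath genes, rbcS was higher (2.79 ± 0.16), while pck2 was the C4 list's 1 gene within 2-fold. It had 65.2 FPKM in the ligular region and 32.6 FPKM in the internode (0.92 ± 0.15), with a difference of 0.30 in Sdw3. PPCK1, a kinase of phosphoenolpyruvate carboxylase, was lower, with 0.922 FPKM in the ligular region and 5.68 FPKM in the internode (-2.03 ± 0.40). In Sdw3 pep1 and ME1 had larger differences, 7.18 and 5.13. Of 5 chlorophyll synthesis genes none was higher and elm1 was lower (-1.05 ± 0.28), whereas 1 was higher and none lower when the columns were scaled to a median ratio of 0. The most abundant, pcr1, a protochlorophyllide reductase, had 818 FPKM in the ligular region and 536 FPKM in the internode (0.43 ± 0.16).

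**Figure D3:**
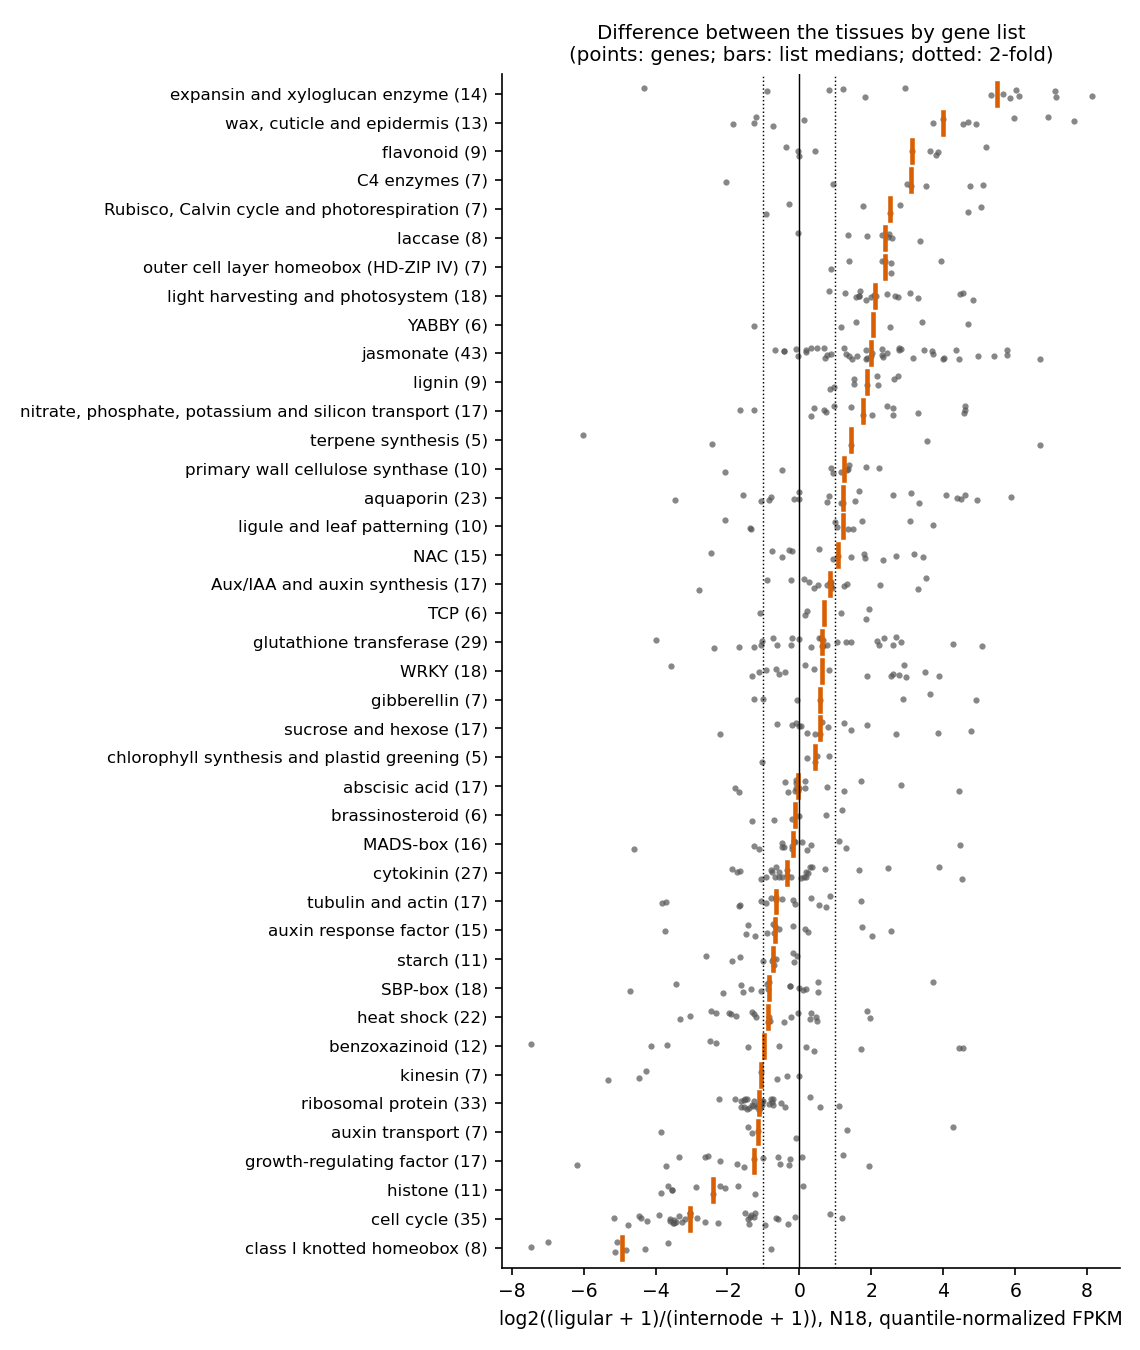
Each point is a gene and each bar a list median of the N18 log2 difference between ligular region and internode after quantile normalization, for every list with at least 5 genes, with the number of genes in brackets. Medians run between -4.94 for class I KNOX genes and 5.49 for expansin and xyloglucan genes, and the dotted lines mark 2-fold.

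Genes of the leaf surface were among the largest increases. Of 13 wax, cuticle and epidermis genes 8 were higher and 3 lower, with a median of 4.0, and the summed level was 8135 FPKM in the ligular region and 330 FPKM in the internode. glossy2 (GRMZM2G098239, chromosome 2, 10630671 to 10633711), needed for juvenile leaf wax, had 570 FPKM in the ligular region and 1.47 FPKM in the internode (7.62 ± 0.27). The lipid transfer protein genes plt2 and LTP3 were very abundant. plt2 had 2041 FPKM in the ligular region and 12.8 FPKM in the internode (6.91 ± 0.24), and LTP3 had 3611 FPKM in the ligular region and 114 FPKM in the internode (4.54 ± 0.18). gl1 (glossy1) had 60.8 FPKM in the ligular region and 0.734 FPKM in the internode (4.92 ± 0.35). The 3 lower genes were fae1 (-1.83 ± 0.15), a CER1 gene (GRMZM2G099097, -1.27 ± 0.37) and cr4 (crinkly4), an epidermal receptor kinase with 13.9 FPKM in the ligular region and 33.5 FPKM in the internode (-1.22 ± 0.16). The second CER1 gene (GRMZM2G066578) ran the opposite way, with 32.7 FPKM in the ligular region and 0.177 FPKM in the internode.

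Outer cell layer genes, HD-ZIP IV factors of the epidermis, were higher in 6 of 7 with none lower, and their median was 2.37. ocl3 had 35.0 FPKM in the ligular region and 1.03 FPKM in the internode (3.95 ± 0.24), and ocl1 had 24.2 FPKM in the ligular region and 3.72 FPKM in the internode (2.31 ± 0.19). ocl4 was within 2-fold at 0.87 ± 0.23. All 7 reached an FPKM of 1 in the ligular region and 6 did so in the internode. Flavonoid genes were higher in 5 of 9 and lower in none. c2, the chalcone synthase, had 21.5 FPKM in the ligular region and 0.432 FPKM in the internode (3.79), CHI had 153 FPKM in the ligular region and 16.01 FPKM in the internode (3.14 ± 0.17), and f3h had 35.4 FPKM in the ligular region and was listed at 0 in the internode. Myb23, listed also as pl1, had 11.4 FPKM in the ligular region and was listed at 0 in the internode (3.62). The anthocyanin branch was mixed. bronze, listed also as BZ1, had 40.3 FPKM in the ligular region and 1.51 FPKM in the internode (3.85 ± 0.33). A1 and bronze-2 of the same branch stayed within 2-fold at -0.03 and 0.43.

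Gibberellin drives stem and leaf elongation. Of 7 genes of this hormone 3 were higher and 2 lower. The 3 higher ones act in early steps of its synthesis, and no direction is drawn for its synthesis as a whole. CYP88A1 (dwarf3), an oxidase of the early pathway, had 105 FPKM in the ligular region and 7.03 FPKM in the internode (3.64 ± 0.17). an1 (anther ear1), the ent-copalyl diphosphate synthase, had 55.3 FPKM in the ligular region and 6.19 FPKM in the internode (2.88 ± 0.36). eks1, the ent-kaurene synthase of the next step, had 36.7 FPKM in the ligular region and 0.147 FPKM in the internode (4.91 ± 0.82). The DELLA repressors stayed within 2-fold. D8 had 204 FPKM in the ligular region and 206 FPKM in the internode (-0.08 ± 0.18), and d9 had 74.3 FPKM in the ligular region and 47.1 FPKM in the internode (0.58 ± 0.15). Dwarf1 and CYP714B3 (-1.27 ± 0.26) were the 2 lower genes, and no gene was lower when the columns were scaled to a median ratio of 0. Among 6 brassinosteroid genes Dwf4 was higher (1.19 ± 0.40) and DWF1 lower (-1.32 ± 0.16).

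Auxin carriers differed gene by gene. PIN10a (GRMZM2G126260) had 54.6 FPKM in the ligular region and 1.48 FPKM in the internode (4.27 ± 0.25). PIN1d (GRMZM2G171702) had 0.752 FPKM in the ligular region and 21.3 FPKM in the internode (-3.83 ± 0.39), and PIN1a had 33.5 FPKM in the ligular region and 72.8 FPKM in the internode (-1.15 ± 0.15). br2 (brachytic2), the auxin exporter whose loss shortens lower internodes, was higher in the ligular region, at 215 FPKM there and 80.3 FPKM in the internode (1.34 ± 0.15). In all, 2 carriers were higher and 4 lower of the 7 on this list, which leaves out aic1 (listed also as aux1, -5.01 ± 0.25). Aux/IAA and auxin synthesis genes had 5 higher and 1 lower of 17, of which AUX14, at 139 FPKM in the ligular region and 12.7 FPKM in the internode (3.30 ± 0.17), was the most abundant in the ligular region. With the columns scaled to a median ratio of 0, 9 of the 17 were higher. Auxin response factors had 3 higher (ARF2, ARF17 and ARF21) and 4 lower of 15, beside 20.1% and 20.5% over all genes. ARF4 had 0.124 FPKM in the ligular region and 13.2 FPKM in the internode (-3.72).

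Cytokinin genes had 4 higher and 4 lower of 27, in each direction a smaller share than the 20.1% and 20.5% over all genes. The higher genes were CKX4, CKX4b and CKX10, oxidases that break cytokinin down, and the response regulator crr1. CKX4 had 43.2 FPKM in the ligular region and 0.650 FPKM in the internode (4.53). The lower genes were the receptor kinases HK1b1 (-1.87 ± 0.16) and HK1a2 (-1.65 ± 0.23), the phosphotransfer gene HP1, with 39.3 FPKM in the ligular region and 129 FPKM in the internode (-1.74 ± 0.16), and the response regulator RR7 (-1.06 ± 0.17). Abscisic acid genes had 4 higher and 2 lower of 17, with vp14, the cleavage enzyme that starts its synthesis, at 11.6 FPKM in the ligular region and 0.535 FPKM in the internode (2.83).

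Jasmonate genes formed the hormone list with the most higher genes, with 30 of 43 higher, none lower and a median of 1.99. Lipoxygenases, which start the synthesis of jasmonate and other oxylipins, were the most abundant, led by lox10 and lox1. lox10 had 1663 FPKM in the ligular region and 193 FPKM in the internode (2.82 ± 0.20), and ts1 (tasselseed1), another lipoxygenase, had 109 FPKM in the ligular region and 6.89 FPKM in the internode (3.72 ± 0.17). aos1, an allene oxide synthase, had 804 FPKM in the ligular region and 144 FPKM in the internode (2.30 ± 0.17). The later steps differed less. aoc1 and aoc2 (allene oxide cyclases) were within 2-fold at -0.67 ± 0.19 and 0.50 ± 0.16, as were the reductases opr7 and opr8 at 0.70 ± 0.16 and 0.77 ± 0.16. The TIFY family, which includes the JAZ repressors that jasmonate itself induces, had the largest differences. TIFY28 (GRMZM2G036351, chromosome 9, 150514711 to 150515694) had 215 FPKM in the ligular region and 0.784 FPKM in the internode (6.68 ± 0.50), and TIFY4 (GRMZM2G445634, chromosome 1, 16791539 to 16792462) had 699 FPKM in the ligular region and 19.7 FPKM in the internode (4.97 ± 0.17). In Sdw3 23 were higher and 1 lower, the median was 1.14, and 35 of the 43 differences were smaller in size than in N18, against 63.8% of all genes and 77.6% of those past 2-fold in N18.

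Defence genes showed opposite signs within the same tissue. Benzoxazinoids are the main defence compounds of young maize, and of 12 genes 6 were lower and 3 higher in the ligular region. bx1 (GRMZM2G085381, chromosome 4, 3260761 to 3263006), which makes indole for the pathway, had 0.679 FPKM in the ligular region and 267 FPKM in the internode (-7.48 ± 0.34). It and KN-1 (-7.46) had the largest decreases among named genes, and as deposited KN-1 came first, at -7.43 against -7.32 for bx1. bx2 had 13.01 FPKM in the ligular region and 240 FPKM in the internode (-4.13 ± 0.16). BX5 had 73.7 FPKM in the ligular region and 795 FPKM in the internode (-3.69 ± 0.17). Of the 3 higher genes, Igl, a second indole-producing lyase, had 36.1 FPKM in the ligular region and 0.492 FPKM in the internode (4.44). glu1, the glucosidase that releases the active compound, had 810 FPKM in the ligular region and 30.7 FPKM in the internode (4.54 ± 0.26), and glu2 was higher by 1.71. bx6 was within 2-fold in N18 (0.39 ± 0.15) and lower in Sdw3 (-1.08).

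The 6 lower genes lie side by side, and that was the longest stretch of neighbours past 2-fold in the same direction. It held 8 genes on chromosome 4, from 3003161 to 3272696, in the order BX3, BX4, BX5, bx8, GRMZM2G085303, bx1, bx2 and GRMZM2G085854. All 8 were lower, with differences between -7.48 (bx1) and -1.42 (bx8). GRMZM2G085854, which has no name in the reference used, had 4.38 FPKM in the ligular region and 67.1 FPKM in the internode (-3.82). All 8 were lower in Sdw3 too, with -5.60 for bx1 and -1.54 for bx8. In all there were 42 stretches of at least 4 such neighbours, 24 higher and 18 lower, and 4 of them hold only 3 distinct loci because genes that share a locus were counted separately. The next longest held 7 genes on chromosome 5, from 209912314 to 210020221, all higher, and included lhcb4 (1.56 ± 0.28) and EREB139 (3.24). Per chromosome the share of genes higher ran between 18.4% and 21.4%, and the share lower between 19.1% and 21.2%, so no chromosome stood far from 20.1% and 20.5%.

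**Figure D4:**
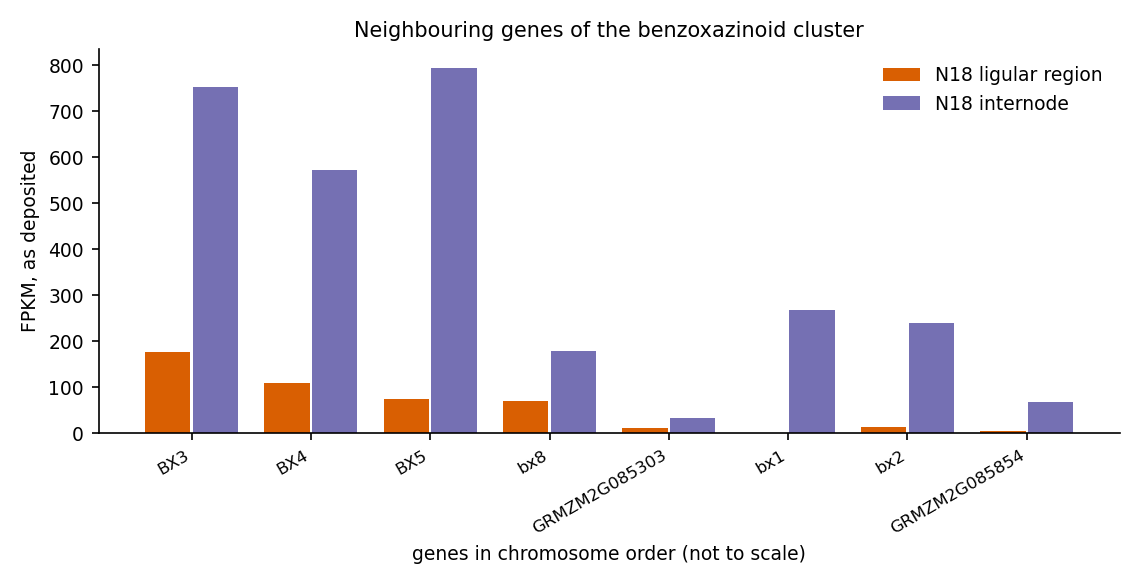
Bars give the FPKM as deposited of 8 neighbouring genes on chromosome 4 in N18 ligular region (left bar) and N18 internode (right bar), in chromosome order. Every internode bar is taller, with bx1 at 0.679 FPKM in the ligular region and 267 FPKM in the internode.

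Terpene synthesis genes were also on both sides. EDS had 0.496 FPKM in the ligular region and 84.4 FPKM in the internode (-6.01 ± 0.33). CYP92C6, a cytochrome P450 that makes volatile homoterpenes, had 109 FPKM in the ligular region and 0.0133 FPKM in the internode (6.69), and tps10, a sesquiterpene synthase, had 10.9 FPKM in the ligular region and was listed at 0 in the internode. Other defence names stood among the 15 largest increases. wip1, a wound-induced proteinase inhibitor, had 396 FPKM in the ligular region and 1.78 FPKM in the internode (6.95 ± 0.49), and chiI had 233 FPKM in the ligular region and 0.159 FPKM in the internode (7.50). AAMT3, an anthranilate methyltransferase, had 103 FPKM in the ligular region and was listed at 0 in the internode. Of 18 WRKY factors 8 were higher and 3 lower. WRKY111 had 25.6 FPKM in the ligular region and 0.569 FPKM in the internode (3.88), and WRKY45 had 4.87 FPKM in the ligular region and 63.0 FPKM in the internode (-3.58 ± 0.21). Glutathione transferases had 11 higher and 6 lower of 29, with gst19 at 5.07 ± 0.59 and gst41 at 48.5 FPKM in the ligular region and 695 FPKM in the internode.

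Heat shock genes were lower in 10 of 22 and higher in 2, with a median of -0.86. hsp18f, a small heat shock protein, had 98.3 FPKM in the ligular region and 814 FPKM in the internode (-3.32 ± 0.16). hsp22 had 194 FPKM in the ligular region and 801 FPKM in the internode (-2.31 ± 0.16), and Hsp70 had 121 FPKM in the ligular region and 396 FPKM in the internode (-1.77 ± 0.16). In Sdw3 12 were lower and 1 was higher, with a median of -1.34, and hsp82 differed by -3.05 there against -1.32 ± 0.23 in N18. HSP18 (GRMZM2G404249) and HSF6 were the 2 higher genes.

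Of 17 sugar genes 10 lay within 2-fold, near the 59.4% over all genes, with 6 higher and 1 lower. ss2 (listed also as sus1), a sucrose synthase of sink tissue, had 1009 FPKM in the ligular region and 2678 FPKM in the internode (-2.21 ± 0.25), a gap of -1.41 as deposited. The sucrose transporter sut1, which loads the phloem, had 101 FPKM in the ligular region and 5.64 FPKM in the internode (3.84 ± 0.19). The cell wall invertase incw1 had 46.9 FPKM in the ligular region and 0.498 FPKM in the internode (4.78 ± 0.31), and the vacuolar invertase ivr2 had 316 FPKM in the ligular region and 82.8 FPKM in the internode (1.87 ± 0.16). The most abundant sugar gene of the ligular region, the fructokinase frk2, was within 2-fold, with 1045 FPKM in the ligular region and 1144 FPKM in the internode (-0.63 ± 0.18). Starch genes were lower in 4 of 11 and higher in none, led by the granule-bound starch synthase GBSSIIa, with 18.9 FPKM in the ligular region and 116 FPKM in the internode (-2.59 ± 0.16).

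Aquaporins, the water channels, were higher in 13 and lower in 3 of 23 genes, with a median of 1.22. PIP1-1 had 1099 FPKM in the ligular region and 298 FPKM in the internode (1.66 ± 0.16), whereas PIP2-1 had 464 FPKM in the ligular region and 1102 FPKM in the internode (-1.58 ± 0.17). The most abundant plasma membrane channel therefore differed between the tissues. NIP1-1 had 279 FPKM in the ligular region and 7.87 FPKM in the internode (4.93 ± 0.20). Of 17 nitrate, phosphate, potassium and silicon transport genes 10 were higher and 2 lower. Lsi6, the silicon channel that unloads silicon from the xylem in rice, had 81.2 FPKM in the ligular region and 1.93 FPKM in the internode (4.60 ± 0.25). NAR2.2, a partner of high-affinity nitrate transporters, had 112 FPKM in the ligular region and 3.12 FPKM in the internode, with a shared locus and an approximate error of 0.71 on a difference of 4.61.

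Among all named genes the largest increase belonged to kin1 (GRMZM2G158394, chromosome 7, 176260710 to 176262411), with 2550 FPKM in the ligular region and 0.929 FPKM in the internode (9.82). The name does not say what the gene does. BURP4, a BURP-domain gene, had 1364 FPKM in the ligular region and 3.57 FPKM in the internode (7.88 ± 0.23), and prp2, a proline-rich protein gene by its name, had 2614 FPKM in the ligular region and 9.03 FPKM in the internode (7.70 ± 0.21). These 3, LTP3, plt2 and lox10 all exceeded 1000 FPKM at the ligule, and 56 genes did so there, against 28 in the internode. The 15 largest decreases also held aic1, listed also as aux1 and not counted on the auxin carrier list. It had 1.88 FPKM in the ligular region and 79.8 FPKM in the internode (-5.01 ± 0.25). HMG5, a high mobility group gene, had 2.54 FPKM in the ligular region and 80.6 FPKM in the internode (-4.72 ± 0.19).

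Sdw3 gave the same comparison from 6 other libraries, with no shared sample. Its tissues were in the same separate tables and had the same leaf numbers as those of N18. A difference that recurs in Sdw3 therefore still cannot tell tissue from table or leaf position. Over the same 23226 genes, 4075 were at least 2-fold higher in the Sdw3 ligular region (17.5%) and 3878 lower (16.7%). Of the 4671 genes higher in N18, 3626 (77.6%) were also higher in Sdw3, 4622 had the same sign and 7 were lower past 2-fold. Of the 4761 genes lower in N18, 3421 (71.9%) were also lower in Sdw3, 4730 had the same sign and 5 were higher past 2-fold. These overlaps made up 89.0% of the genes higher in Sdw3 and 88.2% of those lower there. The median difference of the N18-higher genes was 1.95 in N18 and 1.69 in Sdw3, and that of the N18-lower genes was -1.51 in N18 and -1.29 in Sdw3. The genes were picked for their N18 value, and how far that choice sets the smaller Sdw3 medians was not tested. Across all 23226 genes, r between the 2 differences was 0.947, a description over genes.

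The named genes whose N18 difference was largest while Sdw3 stayed within 2-fold were few and mostly of moderate level. On the higher side they included a WRKY gene (GRMZM2G125653), with 17.1 FPKM in the N18 ligular region and 1.13 FPKM in the N18 internode, against 3.29 FPKM in the Sdw3 ligular region and 1.43 FPKM in the Sdw3 internode. WRKY104 had 6.33 FPKM in the N18 ligular region and 0.110 FPKM in the N18 internode, and 0.0908 FPKM in the Sdw3 ligular region. GPRP, MYBR95 and opr2 completed that side. On the lower side gst13 had 8.02 FPKM in the N18 ligular region and 43.6 FPKM in the N18 internode (-2.37 ± 0.17), with a difference of -0.60 in Sdw3. bHLH35, gst11 and pep7 were also on that side, and pep7 had a Sdw3 difference of -1.0, at the 2-fold line itself.

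**Figure D5:**
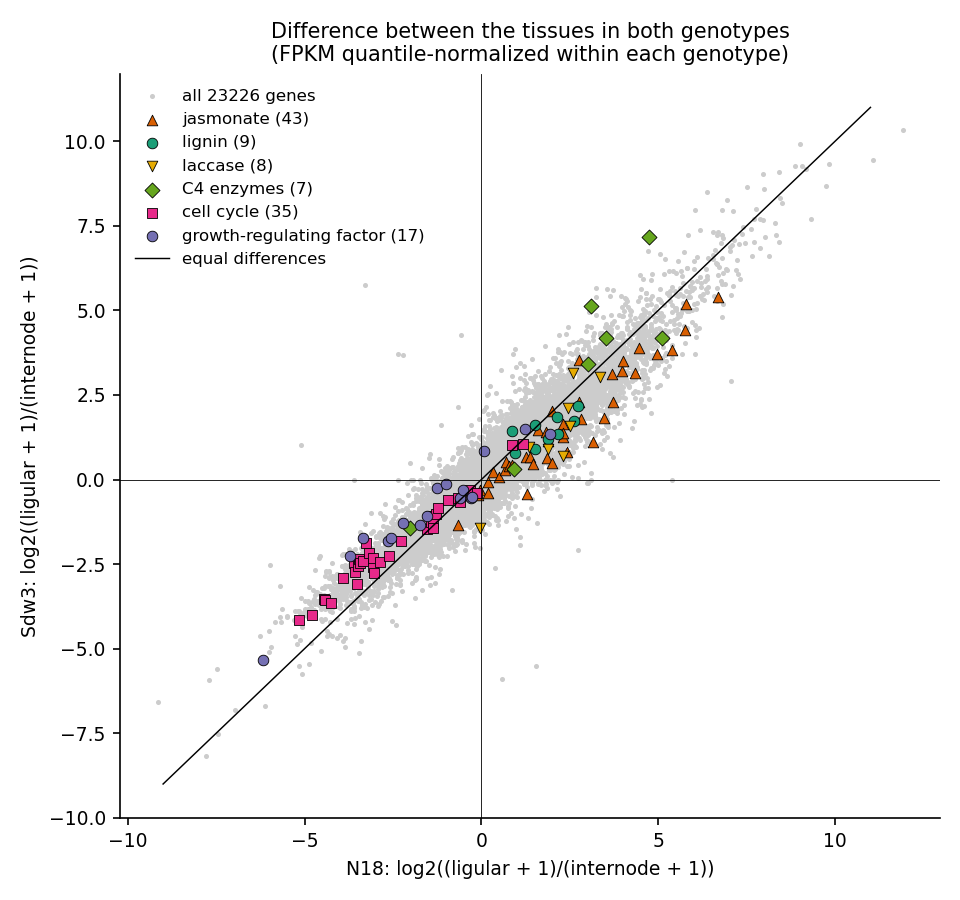
Each point is a gene, with the log2 difference between ligular region and internode in N18 on the x axis and in Sdw3 on the y axis, FPKM quantile-normalized within each genotype, and 6 lists in colour. Most points lie near the line of equal differences, with jasmonate genes mostly below it on the higher side and cell-cycle genes mostly above it on the lower side.

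The rule's minimum of 1 FPKM cut through a continuous range. Just inside it lay GRMZM2G070287, with 1.00025 FPKM in the ligular region and 0.0539 FPKM in the internode, and GRMZM2G171229, with 0.0292 FPKM in the ligular region and 1.00048 FPKM in the internode. Just outside lay GRMZM2G095807, with 0.99977 FPKM in the ligular region and a value listed at 0 in the internode. A zero in these tables is only a listed value: 82 of the 23226 genes were listed at 0 in the ligular region and 440 in the internode, and the depth behind them is unknown.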

How the data were processed

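RNA of 12 maize samples was sequenced, and the 6 N18 samples are the subject here. CASAVA 1.8, bcl2fastq, TopHat2 2.1.0, Cufflinks and the build B73 RefGen_v3 are named in the submitters' processing notes, with no role or order given. The authors deposited 1 table per tissue with an FPKM for each genotype combined over its 3 libraries. The unit is inferred from Cufflinks being named and from the column layout, per the file headers. The authors' test score, p-value and q-value compare Sdw3 with N18 within a tissue, per the file headers, and were used here only for approximate errors. The labels do not say whether the 3 samples of a group are separate plants. Depth per sample is unknown, since the files give no counts, and neither intervals nor detection limits can be stated.

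The tables were joined on gene identifier, and the N18 columns were quantile-normalized over all 39514 genes (Python 3.11.15, numpy 2.4.6, pandas 2.3.3). Members had an FPKM of at least 1 in either tissue, the pseudocount was 1 and the threshold 2-fold. The planned limma and count models need values per library and were replaced by this description. The approximate error is the log2 genotype ratio divided by the authors' score and by a factor fitted to their p-values (1.71 in the ligular region, 1.74 in the internode), combined over the tissues as a root of the sum of squares. The steps were run on simulated data, with changes planted in a small set of genes in noisy copies of the N18 internode column. Those copies were far more alike than the 2 tissues, so the run cannot show how the normalization acts on columns that differ this much.

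Names came from a RefSeq table of a later maize assembly, from which no coordinates were taken. It matched 18839 identifiers, of which 517 fitted more than 1 entry and kept only their identifier, and gave 2573 informative names, 2140 of them on members. Positions are those of the deposited tables. In these, 2215 genes, 1452 of them members, share a locus with another gene. The members and the 45 gene lists were chosen with earlier results of these data known, and ambiguous names were taken off the lists after their values had been seen, so a list's count is a description. Named genes were, per direction, the 15 largest differences among genes with a name, an FPKM of at least 5 and no shared locus, up to 4 per list with the highest of each tissue, all KNOX, ligule, YABBY and SBP-box genes, the 5 most abundant per tissue, and 5 per direction not past 2-fold in Sdw3. Some genes that this rule takes are not reported here. Other list members are named as examples chosen after their values were seen. Alternatives were other scalings, pseudocounts, filters and thresholds, and the Sdw3 columns. Promoter sequences were not used here.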

Additional observations from a re-analysis of the deposited data

How the results depend on the processing

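The 4671 genes at least 2-fold higher in the ligular region became 3062 with a pseudocount of 5, 2266 at a threshold of 4-fold and 3004 when a difference had also to pass 2 approximate errors, an error that 3050 of them have (an alternative chosen after seeing the data). The 4761 lower genes became 2673 with a pseudocount of 5, 8017 at a threshold of 1.5-fold and 1345 at 4-fold. Under the other alternatives the counts stayed within 1.5 times, between 3877 and 6437 for higher and between 3326 and 5621 for lower genes. No list median past 2-fold and no named gene past 2-fold changed sign under any alternative run. Of the 45 list medians, the number that moved by more than the median approximate error of their genes was 35 with a median ratio of 0, 28 with a pseudocount of 5, 24 with the Sdw3 columns, 17 with a pseudocount of 0.1, 13 with a minimum of 5, and 5 each with the values as deposited and without genes that share a locus. No paired analysis was possible because the deposited values are combined over the 3 libraries of a group. For the same reason leaving out each replicate, limma, edgeR and DESeq2 were not run, and the promoter comparison was not run for want of sequences. The depth is unknown, so low values near 1 FPKM carry an error that cannot be given.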
